A study of Mus musculus with 4 samples.

Results

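The 7 genes described here encode ligands and receptors of the glial cell line-derived neurotrophic factor (GDNF) family, and they were chosen by name: the receptor tyrosine kinase gene *Ret*, the co-receptor genes *Gfra1*, *Gfra2* and *Gfra3*, and the ligand genes *Gdnf*, *Nrtn* and *Artn*. They are 7 of 17667 genes listed with reads in at least 1 library. RNA-seq was done on sympathetic ganglia (SG) of thoracic levels T1–T4, which innervate interscapular brown fat, from C57BL/6 mice 12 weeks old that had been kept at 5 °C for 1 day, a cold challenge that all groups shared. Of the 4 libraries, 2 were WT, 1 was TRKC+/- and 1 was AdNTF3-Tg, and each library was a pool of SG from 6 mice. TRKC+/- mice carry 1 disrupted copy of the neurotrophin-3 (NT-3) receptor gene *Ntrk3* in all neurons, and AdNTF3-Tg mice express NT-3 from an adiponectin promoter fragment, which is active in adipocytes. The study had WT controls for each mutant, but the labels do not say which WT library belongs to which. The names of the deposited files do point to a cohort for each WT library, but file names were not used to assign samples here, so both served as 1 WT group (n = 2 pools), and their spread includes any difference between cohorts. Each mutant group had 1 library and no replicate check of its own. All p-values rest on the spread between the WT libraries, with each gene's own spread drawn towards that of all genes.

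GDNF, neurturin (*Nrtn*), artemin (*Artn*) and persephin (*Pspn*) bind a GFRα co-receptor anchored to the cell surface by a lipid, and this complex brings together and activates the RET kinase. GDNF prefers GFRα1, neurturin GFRα2, artemin GFRα3 and persephin GFRα4. In sympathetic neurons artemin, acting through GFRα3 and RET, guides migrating precursors and early axons along blood vessels, neurturin and GFRα2 are best known for cholinergic and parasympathetic innervation, and the ligands come mainly from vessels, target organs and glia, not from the neuron that responds.

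On the mouse genome build NCBIM37, *Ret* lies on chromosome 6 (118101766–118147762), *Gfra1* on chromosome 19 (58310094–58530399), *Gfra2* on chromosome 14 (71289927–71379645), *Gdnf* on chromosome 15 (7761011–7787575), *Nrtn* on chromosome 17 (56890748–56896953) and *Artn* on chromosome 4 (117598767–117602368). *Gfra2* and *Gdnf* are on the plus strand and the other members on the minus strand. Among the 7, only *Gfra1* overlaps another annotated gene, the antisense transcript *Gm16277*, with which it shares exonic bases. Use of strand in the counting was not stated, so reads of the pair cannot be told apart.

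The 250 bases before the RefSeq start of 2 members are shown because *Gfra1* was the receptor gene that varied most between libraries and *Artn* the ligand gene with most reads. They are from the build GRCm38.p6, 5′ to 3′ on the minus strand, at chr19:58455399-58455648 and chr4:117929764-117930013. Capitals mark every E-box, the letters CANNTG, which read alike on both strands and are of the kind that basic helix-loop-helix factors such as HAND2 bind.
Gfra1: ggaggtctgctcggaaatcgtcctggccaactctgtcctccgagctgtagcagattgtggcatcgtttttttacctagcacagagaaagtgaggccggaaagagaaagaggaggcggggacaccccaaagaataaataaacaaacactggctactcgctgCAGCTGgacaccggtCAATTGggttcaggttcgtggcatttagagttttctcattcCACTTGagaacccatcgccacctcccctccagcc
Artn: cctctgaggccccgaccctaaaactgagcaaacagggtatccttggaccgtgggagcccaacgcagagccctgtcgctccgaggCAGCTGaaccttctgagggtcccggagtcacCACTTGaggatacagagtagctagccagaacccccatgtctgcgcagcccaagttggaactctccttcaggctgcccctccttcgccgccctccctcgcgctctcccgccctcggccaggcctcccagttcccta
The *Gfra1* window holds 3 E-boxes, at 90, 75 and 34 bases before the start, no GC box (GGGCGG on either strand) and no TATAAA. The *Artn* window holds 2 E-boxes and 2 GC boxes and is richer in G and C, 63.6% against 52.4% for *Gfra1*. Over 32851 RefSeq windows of this kind, 66.2% hold an E-box and 32.7% a GC box, and the median GC content is 52.4%, so most promoters hold an E-box.

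Depth was alike, with 8665955 to 8894985 reads on genes per library. Noradrenergic identity of the tissue was clear in all 4 libraries. *Th* and *Dbh*, the enzymes that open and close noradrenaline synthesis, lay between 2576 and 2753 FPKM (fragments scaled to transcript length and library size) and between 2100 and 2170 FPKM. Defining sensory neuron markers were low, *Scn10a* at 0.18 to 0.70 FPKM and *Pou4f1* at 0.06 to 0.15 FPKM, although *Avil*, which is also used as a sensory marker, stood at 195 to 207 FPKM. Counts of the targeted gene went against 1 label: *Ntrk3* had 78 and 83 reads in the WT libraries, 91 in the library labelled TRKC+/- and 76 in AdNTF3-Tg. *Ntf3*, the NT-3 gene, had 2 reads in the library labelled TRKC+/- and none in the other 3, AdNTF3-Tg included. Skeletal muscle markers separated the WT libraries, with a summed 77.6 FPKM over 6 genes in WT library 1 and 2.36 FPKM in WT library 2.

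Receptor genes of the family were expressed at moderate levels, and ligand genes were at the edge of detection. *Ret*, the kinase that all 4 ligands share, was the highest member. It stood at 41.1 and 46.7 FPKM in WT libraries 1 and 2, at 43.5 FPKM in the library labelled TRKC+/- and at 45.6 FPKM in AdNTF3-Tg. Both mutant values fell between the WT values, whose mean was 43.9 ± 4.01 FPKM (SD, n = 2). The mean of the 4 libraries, 44.2 FPKM, ranked 1967th of 17667 genes, and *Ret* was 16.0 to 19.7 times as high as *Ntrk3* within each library. *Ret* was counted over 2 transcripts, and the mean length used for FPKM differed by 1.91% between libraries.

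*Gfra2*, the neurturin co-receptor gene, came next. WT libraries 1 and 2 held 31.0 and 25.4 FPKM, the library labelled TRKC+/- 29.3 FPKM and AdNTF3-Tg 32.0 FPKM. AdNTF3-Tg was the highest of the 4, but by only 0.05 on the log2 scale over WT library 1, and the 95% counting interval of the ratio of reads ran from -0.10 to 0.17. *Gfra3*, the artemin co-receptor gene (chromosome 18, 34849557–34880041 on NCBIM37), stood at 18.6 and 14.8 FPKM in the WT libraries, at 21.8 FPKM in the library labelled TRKC+/- and at 16.1 FPKM in AdNTF3-Tg. The library labelled TRKC+/- lay above both WT libraries and AdNTF3-Tg between them.

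*Gfra4*, the persephin co-receptor gene and a family member outside the 7, followed with 8.89 and 10.7 FPKM in WT, 6.51 FPKM in the library labelled TRKC+/- and 9.80 FPKM in AdNTF3-Tg. Here the library labelled TRKC+/- was the lowest. *Gfra1*, the GDNF co-receptor gene, was the lowest receptor, at 5.69 and 2.72 FPKM in WT, 4.50 FPKM in the library labelled TRKC+/- and 2.70 FPKM in AdNTF3-Tg, from 161, 78, 130 and 77 reads in that order. Libraries fell into a higher and a lower pair, each with a WT library in it, and the WT mean was 4.21 ± 2.10 FPKM (SD, n = 2).

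By mean FPKM the order of the receptors was *Ret*, *Gfra2*, *Gfra3*, *Gfra4* and *Gfra1*. Ranges over the 4 libraries did not overlap between any neighbours in this order, so the order was the same in every library. *Gfra1* reached 5.69 FPKM at most, and *Gfra4* 6.51 FPKM at least, which is the narrowest gap. The coefficient of variation over the 4 libraries rose as the level fell, from 5.64% for *Ret* through 9.84% for *Gfra2* and 17.3% for *Gfra3* to 19.96% for *Gfra4* and 37.4% for *Gfra1*. Reads summed over the libraries were 10751, 3527, 1213, 430 and 446 in that order.

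**Figure D1:**
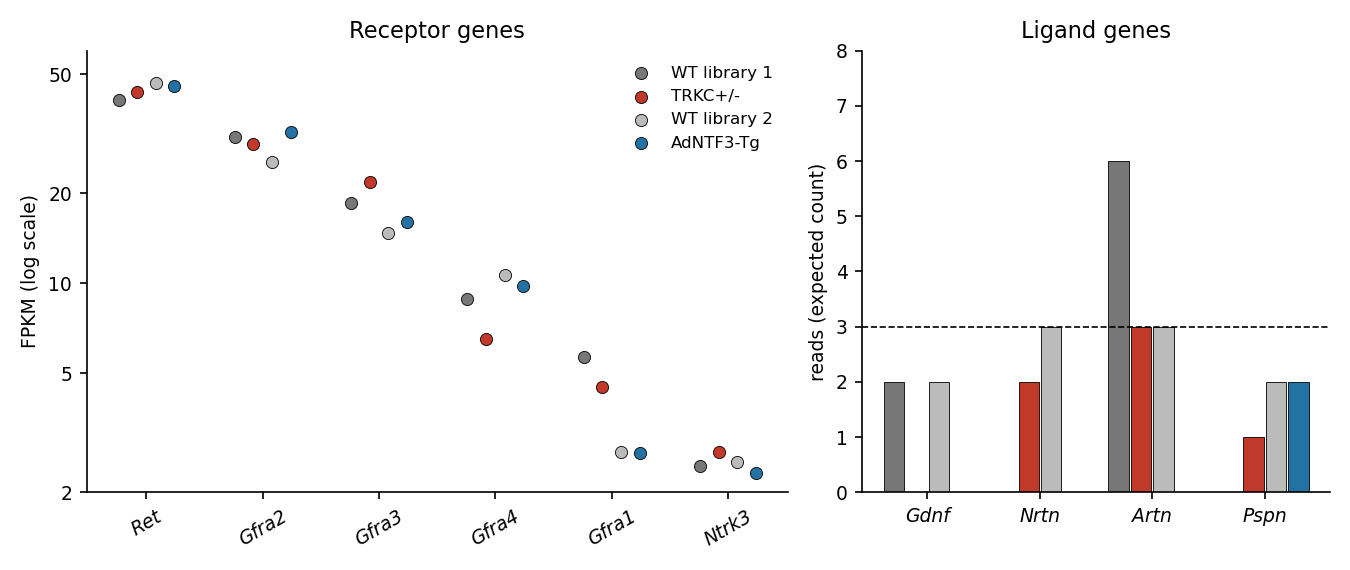
Left, FPKM on a log axis of the receptor genes, with *Ntrk3* for scale, 1 point per library. Right, reads of the 4 ligand genes per library, with the floor of 3 reads dashed: only *Artn* in WT library 1, at 6 reads, stands above it.

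Added together, the 4 co-receptor genes gave 64.1 and 53.6 FPKM in the WT libraries, 62.1 FPKM in the library labelled TRKC+/- and 60.6 FPKM in AdNTF3-Tg, so their sum exceeded *Ret* in every library. *Ret* per unit of this sum was 0.641 and 0.872 in WT, 0.701 in the library labelled TRKC+/- and 0.753 in AdNTF3-Tg, both mutants inside the WT range. *Gfra2* held the largest share throughout: 48.3% and 47.4% in WT, 47.2% in the library labelled TRKC+/- and 52.8% in AdNTF3-Tg. *Gfra3* held 29.0% and 27.6% in WT, 35.1% in the library labelled TRKC+/- and 26.6% in AdNTF3-Tg. The smallest share, that of *Gfra1*, was 8.88% and 5.08% in WT, 7.25% in the library labelled TRKC+/- and 4.46% in AdNTF3-Tg.

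**Figure D2:**
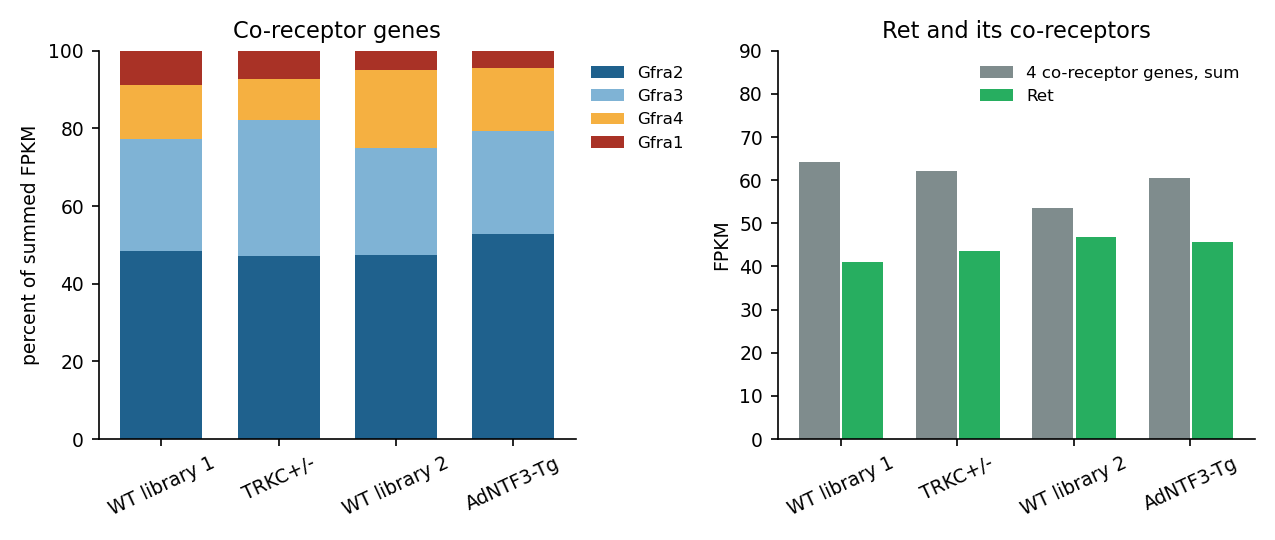
Left, percent of the summed FPKM of *Gfra1* to *Gfra4* held by each gene, 1 bar per library. Right, that sum (grey) and *Ret* (green) in FPKM. *Gfra2* takes 47.2% to 52.8% and *Gfra1* 4.46% to 8.88%, and the sum is above *Ret* in each library.

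Ligand transcripts were almost absent. *Artn* had 6 and 3 reads in WT libraries 1 and 2, 3 reads in the library labelled TRKC+/- and none in AdNTF3-Tg. *Nrtn* had 0 and 3 reads in WT, 2 reads in the library labelled TRKC+/- and none in AdNTF3-Tg. *Gdnf* had 2 reads in each WT library and none in either mutant. Summed, the 3 genes had 8 and 8 reads in WT, 5 in the library labelled TRKC+/- and 0 in AdNTF3-Tg, against 3880 to 4083 reads for the 4 receptor members. *Pspn* was similar, with 0 and 2 reads in WT, 1 in the library labelled TRKC+/- and 2 in AdNTF3-Tg.

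A count of 0 allows up to 3 reads. For *Gdnf* that is 0.0971 FPKM in AdNTF3-Tg, for *Artn* 0.157 FPKM and for *Nrtn* 0.333 FPKM. Except for *Artn* in WT library 1, every ligand value was at or under this floor. For *Artn* the 95% counting interval of AdNTF3-Tg against WT library 1 stayed under 0, with an upper end at -0.26 on the log2 scale, but against WT library 2 it reached 1.28. For no single ligand gene was a difference from both WT libraries detectable at this depth. Summed over the 3 genes, the 0 reads of AdNTF3-Tg against 8 in each WT library gave counting intervals with upper ends at -0.79 and -0.76 on the log2 scale. The 5 reads of the library labelled TRKC+/- gave intervals from -2.67 to 1.08 and from -2.64 to 1.11. These intervals cover counting error only, AdNTF3-Tg is 1 library, and the sum was formed after the values were seen. With *Pspn* added the counts were 2 in AdNTF3-Tg against 8 and 10 in WT, and the intervals ran from -5.30 to 0.30 against WT library 1 and from -5.55 to -0.08 against WT library 2, so the difference from WT library 1 was no longer clear of 0. Oligo(dT) libraries of whole ganglia do not show protein delivered from target organs.

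The first comparison asks whether loss of 1 *Ntrk3* copy went with other receptor levels in SG. In the library labelled TRKC+/-, none of the 4 receptor members passed edgeR's quasi-likelihood test (adjusted p 0.999 for each), where 1 of 14156 genes tested, 0.00706%, did: *Ucp1*, the brown fat uncoupling protein gene, was lower. None of the 4 had an unadjusted p under 0.05 either, against 1.93% of all genes, and DESeq2 called none of them. *Ret* differed from WT by -0.02 ± 0.09 (log2 fold change ± SE), *Gfra2* by 0.05 ± 0.13 and *Gfra1* by 0.10 ± 0.38.

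*Gfra3* gave the largest value of the 4, 0.38 ± 0.17 (unadjusted p = 0.051, adjusted p = 0.999 by edgeR). Pair by pair, the library labelled TRKC+/- was 0.23 above WT library 1 in log2 FPKM and 0.56 above WT library 2, while the WT libraries themselves were 0.33 apart. The reads gave 95% counting intervals from 0.00 to 0.44 and from 0.33 to 0.80 for these ratios, which cover counting error only. *Gfra4* went the other way by -0.59 ± 0.24 (unadjusted p = 0.041, adjusted p = 0.999 by edgeR), being 0.44 under WT library 1 and 0.70 under WT library 2 on the log2 FPKM scale. Neither gene passed the fold cutoff of the study, an absolute log2 ratio of 0.5, against both WT libraries.

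The second comparison asks the same of NT-3 overexpression in fat. AdNTF3-Tg gave no call among the receptor members or anywhere else by edgeR, 0 of 14156 genes or 0%, with 832 genes (5.88%) at an unadjusted p under 0.05 but no member. DESeq2 also called no gene. *Ret* differed from WT by 0.06 ± 0.09 (adjusted p = 0.910), *Gfra2* by 0.18 ± 0.13 (adjusted p = 0.821) and *Gfra3* by -0.05 ± 0.17 (adjusted p = 0.964, all by edgeR). *Gfra4* was level with WT at -0.00 ± 0.23.

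*Gfra1* had the largest difference in AdNTF3-Tg, -0.64 ± 0.41 (adjusted p = 0.819 by edgeR), and it rested on 1 WT library. Against WT library 1 the log2 FPKM ratio was -1.05, with a counting interval from -1.50 to -0.69. Against WT library 2 it was -0.01, with an interval from -0.49 to 0.46. The library labelled TRKC+/- likewise lay -0.33 from WT library 1 and 0.71 from WT library 2, opposite in sign. The WT libraries were 1.04 apart, with a counting interval from 0.68 to 1.48. For *Gfra1* this gap between pools of the same genotype was about as large as that between AdNTF3-Tg and WT library 1.

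**Figure D3:**
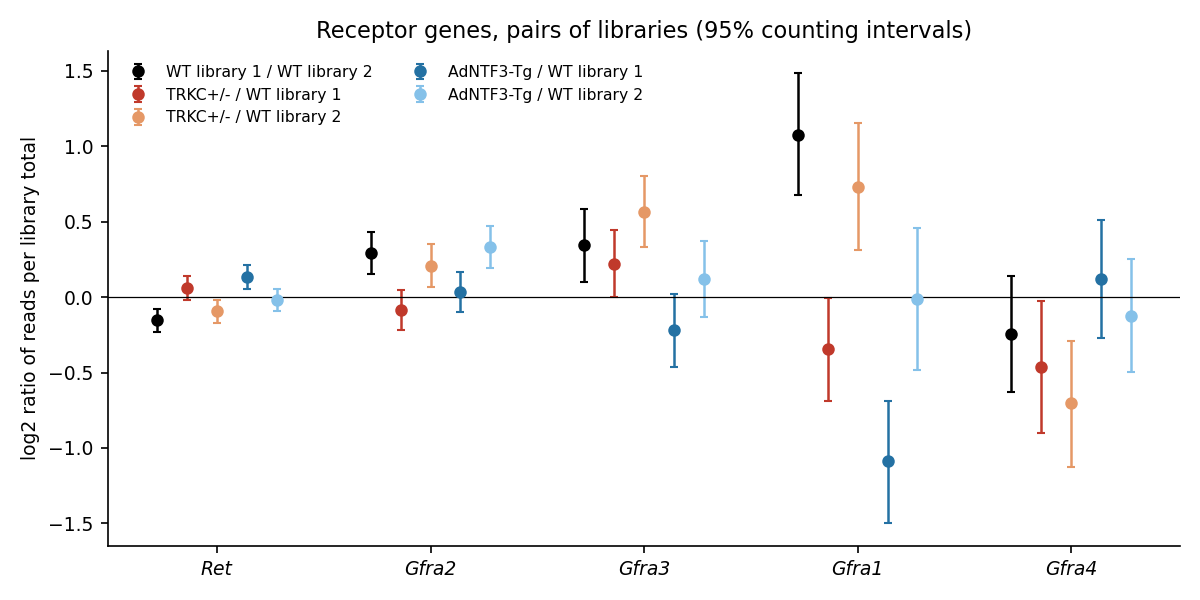
Log2 ratios of reads per library total for 5 pairs of libraries and each receptor gene, with exact 95% counting intervals as bars. Black points compare the WT libraries with each other: for *Gfra1* that ratio lies as far above 0 as its AdNTF3-Tg ratio to WT library 1 lies below, and its TRKC+/- ratios lie on both sides of 0.

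Set directly against each other, the mutants gave no call among the receptors, and no member had an unadjusted p under 0.05, which 4.68% of genes had. AdNTF3-Tg minus the library labelled TRKC+/- was -0.43 ± 0.20 for *Gfra3*, -0.73 ± 0.46 for *Gfra1* and 0.59 ± 0.27 for *Gfra4* on the log2 scale (adjusted p = 0.940 for each by edgeR, where 0.00706% of genes were called).

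By the study's fold cutoff, required against both WT libraries and used here as a description, 1 of the 7 members lay below WT in the library labelled TRKC+/-, namely *Gdnf*, where 640 of 17667 genes (3.62%) did. In AdNTF3-Tg, *Gdnf* and *Artn* lay below, where 852 genes (4.82%) did. All these rest on 6 reads or fewer in every library. No member lay above WT in either mutant, against 3.82% and 3.96% of all genes. Between the WT libraries, 2 members were past the cutoff with WT library 1 higher (*Gfra1* and *Artn*), where 11.1% of genes were, and 1 with WT library 1 lower (*Nrtn*), where 8.02% were. Of the 12765 genes averaging 1 FPKM or more, 939 (7.36%) were past it between the WT libraries and 612 (4.79%) also had a counting interval without 0, and *Gfra1* was 1 of these.

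Other receptors for these ligands were steadier than *Gfra1*. *Sdc3*, a heparan sulphate proteoglycan that binds GDNF, and *Ncam1*, a cell adhesion molecule that can signal with GFRα1 without RET, stood at 84.5 to 89.8 FPKM and at 70.1 to 75.8 FPKM. *Sorl1*, a sorting receptor for GDNF and GFRα1, stood at 3.21 to 3.58 FPKM and *Lrig1*, a membrane protein that restrains RET, at 3.53 to 4.55 FPKM. None of the 5 genes listed (with *Gas1*) was called in either mutant, and their median log2 fold changes were 0.11 in the library labelled TRKC+/- and 0.09 in AdNTF3-Tg, against -0.00 over all 14156 genes in both. *Gdf15* had 4 to 6 reads per library, and its receptor gene *Gfral*, a hindbrain relative of the family, was not listed in any.

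Most RET adaptor genes were expressed. Of 24, 22 could be tested and none was called in either mutant. *Shc1*, which links phosphorylated RET to the RAS and PI3K pathways, stood at 66.7 to 74.5 FPKM, its neuronal relative *Shc2* at 34.4 to 37.4 FPKM, *Grb2* at 38.4 to 44.7 FPKM and the phosphatase gene *Ptpn11* at 39.1 to 40.9 FPKM. In AdNTF3-Tg 17 of the 22 were within 0.2 of WT on the log2 scale, where 63.5% of all genes were, and in the library labelled TRKC+/- 19 of the 22 were, where 71.8% of all genes were. *Dok1* and *Dok2*, docking proteins known mainly from blood cells, were past the fold cutoff against both WT libraries in AdNTF3-Tg. *Dok1* had 49 and 57 reads in WT, 43 in the library labelled TRKC+/- and 26 in AdNTF3-Tg, -1.02 ± 0.36 (adjusted p = 0.817 by edgeR). *Dok2* had 20 and 19 reads in WT, 18 in the library labelled TRKC+/- and 8 in AdNTF3-Tg, -1.27 ± 0.59 (adjusted p = 0.817 by edgeR). The 4 macrophage markers summed to 30.3 and 26.9 FPKM in WT, 29.3 FPKM in the library labelled TRKC+/- and 26.7 FPKM in AdNTF3-Tg, and the part of blood cells in these values was not tested. *Grb7*, with 4 reads at most, was the third of the 24 below the cutoff, where 4.82% of all genes were. In AdNTF3-Tg 2 of the 22 had an unadjusted p under 0.05 by edgeR, as 5.88% of all genes had, *Dok1* and the docking protein gene *Frs2*, which stood at 11.2 FPKM against 8.86 and 8.83 FPKM in WT and 10.5 FPKM in the library labelled TRKC+/-. *Cbl*, the gene of a ubiquitin ligase that marks active RET for degradation, had 144 and 104 reads in WT, 85 in the library labelled TRKC+/- and 171 in AdNTF3-Tg, beyond WT on either side but -0.57 ± 0.26 and 0.46 ± 0.24 from it (adjusted p = 0.999 and 0.817 by edgeR). Between the mutants *Cbl* was 1.03 ± 0.29 higher in AdNTF3-Tg on the log2 scale (unadjusted p = 0.00797, adjusted p = 0.940 by edgeR), the 1 of the 22 with an unadjusted p under 0.05 there, where 4.68% of all genes had one. *Cbl* and *Frs2* were named after their values were seen.

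Genes that GDNF and RET switch on in the growing kidney gave no call. Of 10, 8 could be tested. *Cxcr4*, a chemokine receptor gene, was at 22.9 to 27.2 FPKM. *Etv5*, an ETS factor gene, was at 13.0 to 15.4 FPKM, and the ERK phosphatase gene *Dusp6* at 12.7 to 14.8 FPKM. In each of these 3 the AdNTF3-Tg value was the lowest or next to it, but the 3 differences from WT were -0.20, -0.22 and -0.08 on the log2 scale, none called. *Mmp14*, a matrix protease gene, was at 12.2 and 11.6 FPKM in WT, 15.6 FPKM in the library labelled TRKC+/- and 14.2 FPKM in AdNTF3-Tg, and its difference of 0.39 ± 0.14 in the library labelled TRKC+/- had an unadjusted p of 0.023 and an adjusted p of 0.999 by edgeR. *Etv4*, the sister gene of *Etv5*, had 18 reads in both WT libraries and in the library labelled TRKC+/- and 5 in AdNTF3-Tg, -1.82 ± 0.66 (unadjusted p = 0.025, adjusted p = 0.817 by edgeR), and was named after its values were seen. Of the 8, 3 were within 0.2 of WT in AdNTF3-Tg and 5 in the library labelled TRKC+/-, where 63.5% and 71.8% of all genes were. The list's median was -0.21 in AdNTF3-Tg and -0.05 in the library labelled TRKC+/-, against -0.00 over all genes in both.

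Transcription factor genes that set up and hold the sympathetic lineage gave no call. *Hand2* stood at 234 to 247 FPKM, *Phox2a* at 142 to 168 FPKM, *Isl1* at 51.6 to 55.7 FPKM and *Gata2* at 43.8 to 48.9 FPKM. With *Gata3*, all 5 were tested and were within 0.2 of WT on the log2 scale in both mutants, as 71.8% of all genes were in the library labelled TRKC+/- and 63.5% in AdNTF3-Tg, and none was called. Between the mutants, 1 of the 5 had an unadjusted p under 0.05 by edgeR, against 4.68% of all genes: *Phox2a* in AdNTF3-Tg minus the library labelled TRKC+/- was -0.24 ± 0.09 (unadjusted p = 0.031, adjusted p = 0.940).

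**Figure D4:**
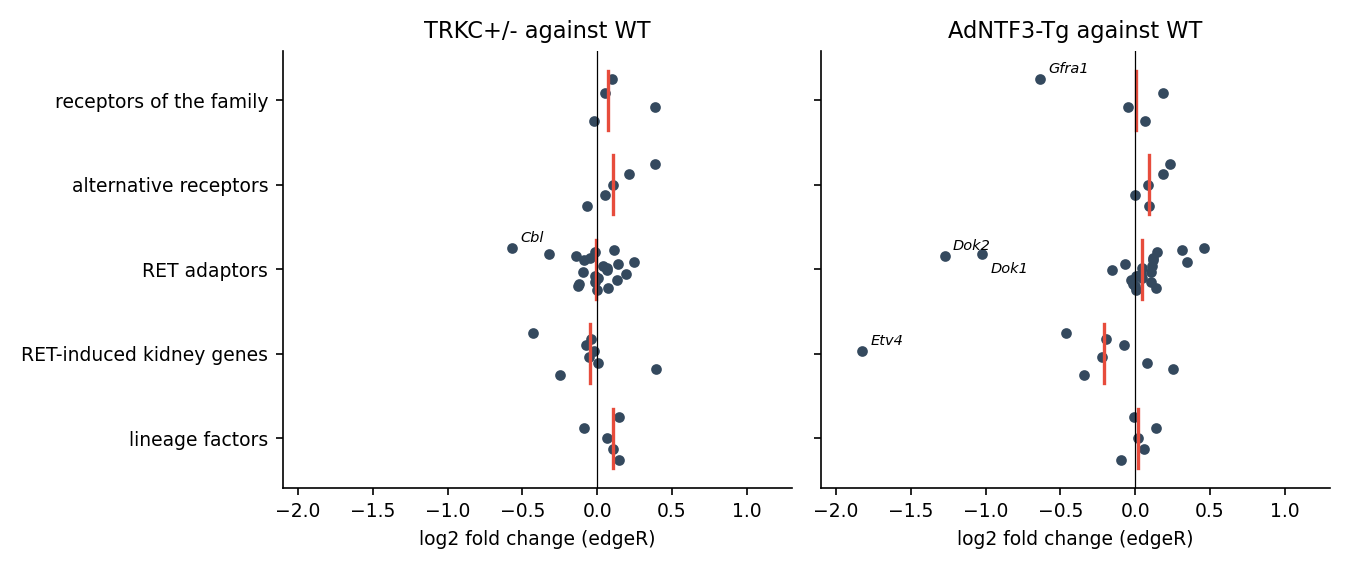
Log2 fold changes from edgeR of the tested genes of 5 lists in each mutant against WT, 1 point per gene, with list medians in red and genes beyond 0.55 named. Most points lie within 0.5 of 0, and none of the genes shown was called.

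Markers of some other cell types were highest or lowest in the same library as some receptor genes. These matches over 4 libraries were read from the values after they were seen, and how often unrelated genes match was not tested. In bulk tissue fewer cells of a type and less RNA per cell cannot be told apart. All 6 skeletal muscle markers were highest in WT library 1, where *Gfra1* was highest too. Their sum was 77.6 and 2.36 FPKM in WT, 35.0 FPKM in the library labelled TRKC+/- and 28.8 FPKM in AdNTF3-Tg. *Gfra1* was level between WT library 2 and AdNTF3-Tg, at 2.72 and 2.70 FPKM, where the muscle sum was not. Haemoglobin genes, with 3 of 4 listed, ran in the same order as *Gfra1* except at the bottom. They summed to 172 and 64.9 FPKM in WT, 145 FPKM in the library labelled TRKC+/- and 87.6 FPKM in AdNTF3-Tg. The macrophage sum ran in the full order of *Gfra1* but over a narrow range, from 30.3 FPKM in WT library 1 to 26.7 FPKM in AdNTF3-Tg. Of the 5 adipocyte genes, 1 ran in the full order of *Gfra1*, the hormone gene *Adipoq*, at 14.0 and 7.56 FPKM in WT, 9.0 FPKM in the library labelled TRKC+/- and 6.92 FPKM in AdNTF3-Tg. The other 4 ran in other orders. The 5 genes summed to 122 and 108 FPKM in WT and 96.3 FPKM in AdNTF3-Tg, and to 65.8 FPKM in the library labelled TRKC+/-, where *Gfra4* was lowest. Most of that gap lay in *Ucp1*, and without it the other 4 summed to 74.9 and 60.01 FPKM in WT, 57.95 FPKM in the library labelled TRKC+/- and 58.5 FPKM in AdNTF3-Tg, a sum chosen after the values were seen.

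The sensory list was nearly all *Avil* in sum, and its rarer genes did not run alike. Of the 4 genes tested, 2 had an unadjusted p under 0.05 in the library labelled TRKC+/- against WT by edgeR, where 1.93% of all genes had. *Scn10a*, a sodium channel gene, had 27 and 25 reads in WT, 10 in the library labelled TRKC+/- and 39 in AdNTF3-Tg, and its difference in the library labelled TRKC+/- was -1.39 ± 0.51 (unadjusted p = 0.025, adjusted p = 0.999 by edgeR). *Scn11a*, another sodium channel gene, had 30 and 49 reads in WT, 18 in the library labelled TRKC+/- and 29 in AdNTF3-Tg, and differed there by -1.15 ± 0.48 (unadjusted p = 0.045, adjusted p = 0.999 by edgeR). Both were lowest in the library where *Gfra4* was lowest, and neither was called. *Trpv1*, an ion channel gene and the other rare gene tested, went the opposite way there, by 0.96 ± 0.80 on the log2 scale. It had 7 and 3 reads in WT, 10 in the library labelled TRKC+/- and 10 in AdNTF3-Tg.

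The 6 satellite glia genes summed to 671 and 506 FPKM in WT, 621 FPKM in the library labelled TRKC+/- and 610 FPKM in AdNTF3-Tg, and 3 of the 6 were highest in WT library 1. Single genes of this list went different ways. *Fabp7* stood at 342 and 211 FPKM in WT, 286 FPKM in the library labelled TRKC+/- and 287 FPKM in AdNTF3-Tg. *Kcnj10*, a potassium channel gene, was lowest in WT library 1, at 24.3 and 25.5 FPKM in WT, 26.96 FPKM in the library labelled TRKC+/- and 26.67 FPKM in AdNTF3-Tg. *Sox10*, a glial transcription factor gene, ran in the order of *Gfra3*, at 42.5 and 36.8 FPKM in WT, 50.3 FPKM in the library labelled TRKC+/- and 41.3 FPKM in AdNTF3-Tg, and its difference from WT in the library labelled TRKC+/- was 0.34 ± 0.11 (unadjusted p = 0.016, adjusted p = 0.999 by edgeR). The 5 Schwann cell genes summed to 214 FPKM in the library labelled TRKC+/-, where *Gfra3* was highest, against 200 and 167 FPKM in WT and 179 FPKM in AdNTF3-Tg, with *Pmp2* at 1 read or none. The part of these cells in the receptor values was not tested. Noradrenergic markers, 6 genes, spanned 8799 to 9427 FPKM in sum. In AdNTF3-Tg 5 of the 6 were within 0.2 of WT on the log2 scale, where 63.5% of all genes were. The exception was the peptide gene *Npy*, at -0.28 ± 0.08. It had 12097 and 10906 reads in WT, 11988 in the library labelled TRKC+/- and 9451 in AdNTF3-Tg. The cholinergic list, 4 genes of which the peptide gene *Vip* held most, summed to 58.2 and 94.9 FPKM in WT, 69.8 FPKM in the library labelled TRKC+/- and 78.4 FPKM in AdNTF3-Tg.

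**Figure D5:**
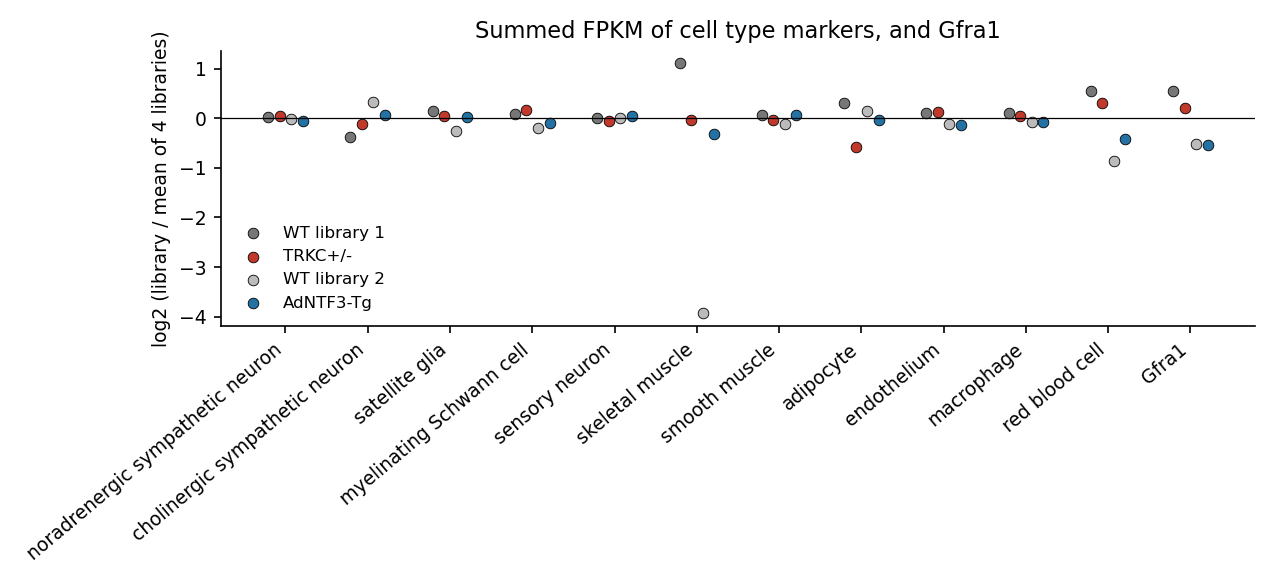
Summed FPKM of the listed genes of 11 cell type marker lists, and of *Gfra1* at the right, as log2 of each library over the mean of the 4 libraries. WT library 2 stands lowest for skeletal muscle and red blood cell markers, and the sensory sum is nearly all *Avil* and does not show its rarer genes.

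Genes with the profile nearest to that of *Ret* over the 4 libraries were *Adssl1*, a purine synthesis gene, *Chmp1b*, a gene of the ESCRT membrane machinery, and a gene whose identifier had no symbol, at root mean square differences of 0.0011, 0.002 and 0.0048 on the centred log2 scale. A profile this flat is common, since 4409 of 12764 genes compared lay within 0.1 of it. For *Gfra1* the nearest, looked up after its values were seen, were *Tnfrsf10b*, a death receptor gene, *Slc6a13*, a GABA transporter gene known from meninges, and *Des*, the muscle intermediate filament gene, and only 5 genes lay within 0.1.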

How the data were processed

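SG from 6 mice per library were pooled by the study. Per the paper's methods, mRNA was enriched with oligo(dT), single-end reads of 50 bases were filtered with SOAPnuke (v1.5.2) and mapped to mm9 with HISAT2 (v2.0.4), whereas the submitters' processing notes name RSEM and mm10. The authors deposited, per Entrez gene, an expected count of reads, not normalized, in which reads that map to several transcripts are shared out, a transcript length, and an FPKM value made by scaling that count to length and library size. A gene not listed in a table was taken as 0 there. Symbols came from a RefSeq table (GRCm38.p6), which matched 17619 of 17667 identifiers.

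Expected counts were rounded, scaled by TMM and tested with edgeR (4.0.16, quasi-likelihood, filterByExpr) in 1 fit of all 4 libraries with 1 residual degree of freedom, so that each lone mutant library was assumed to vary like WT. The variance of each gene was moderated over all genes tested, with 6.79 prior degrees of freedom. The 3 ligand members did not pass the count filter. Adjusted p-values are Benjamini-Hochberg over all genes tested, with a threshold of 0.05. DESeq2 (1.42.0) was an alternative. FPKM ratios are log2((a + 0.1)/(b + 0.1)), which understates changes of low genes. Exact Clopper-Pearson 95% intervals of pairs of libraries, from reads per library total, account for counting error alone, as does the floor of 3 reads. Methods were tested on simulated data. Members and lists were chosen with earlier results of these data known.

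Named genes were the 7 members, other family members, *Ntrk3*, *Ntf3*, from each pathway list those called or past the fold cutoff against both WT libraries with at least 20 reads plus up to 4 of highest mean FPKM, leading cell type markers, and the 3 profiles nearest to *Ret*. Others are marked where they appear. Some genes of the lists are not reported here and were left out of the counts over the lists.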

Additional observations from a re-analysis of the deposited data

How the results depend on the processing

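For the 4 receptor members and *Gfra4*, all 45 tests rerun with RLE size factors, without the low-count filter or with DESeq2 kept their direction and stayed short of the threshold, and all 30 FPKM ratios recomputed with other pseudocounts or centring moved by less than the SD of the WT libraries. With 1 WT library as the control, 6 of the 10 FPKM ratios had opposite signs by the library used. For TRKC+/- these were *Ret* (-0.10 and 0.08), *Gfra1* (0.71 and -0.33) and *Gfra2* (0.20 and -0.08), and for AdNTF3-Tg *Ret* (-0.04 and 0.15), *Gfra3* (0.12 and -0.20) and *Gfra4* (-0.12 and 0.14), against WT library 2 and WT library 1. Counts over all genes moved more. In the TRKC+/- comparison 2 genes were called with RLE size factors and 2 with DESeq2 (*Ucp1* and *Npcd*), and 0 without the filter. Between AdNTF3-Tg and TRKC+/-, 0 were called without the filter. The cause was not tested. Genes past the fold cutoff against both WT libraries numbered 1315 for TRKC+/- and 1552 for AdNTF3-Tg. They numbered 140 and 214 with a pseudocount of 1, 211 and 339 at a mean of at least 1 FPKM, and 491 and 558 with a cutoff of 1. With 1 WT library as the control they numbered 2936 to 3218 and 3297 to 3445, since only 1 ratio then had to pass. Between the WT libraries 3381 genes fell to 752 with a pseudocount of 1 and to 939 at a mean of at least 1 FPKM. No paired test was run, because each mutant group holds 1 library and the labels do not match WT libraries to mutants. Ratios to the WT library of the same cohort were therefore not singled out, and those that changed sign are given against both. Ligand genes, at 6 reads or fewer, are limited by depth. The criterion on counting intervals between the WT libraries and the summed ligand reads were added after the data were seen.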
